A study of Mus musculus with 6 samples.

Results

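Genes that mark a fetal-like, regenerating state of the intestinal epithelium were compared between adenomas of the mouse models ApcMin and Apc1322T. The set was defined by name, as *Ly6a*, *Ly6e*, *Msln*, *Clu*, *Spp1*, *Anxa1*, *Il33*, *Il1rn* and *Ankrd1*, and all 9 genes were found by Ensembl identifier among the 34866 genes of the count table. RNA was sequenced from intestinal adenomas excised from C57BL/6J mice at 100 to 120 days of age, 3 libraries from ApcMin/+ mice and 3 from Apc1322T/+ mice. The former carry a truncation that essentially abolishes Apc function, and the latter a longer truncation that still binds β-catenin. There is no normal tissue among the 6 libraries, so that every comparison is between the models. Both models are heterozygous in the germline, and each ApcMin adenoma arises from an epithelial cell that has lost the second copy of Apc. By the study's methods, a library usually combines RNA of more than 1 extraction from the same animal.

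When the intestinal epithelium is damaged, crypt cells can transiently reactivate genes of the fetal gut and switch off the adult stem cell programme. This state depends on YAP and TAZ, coactivators that are held in check by the Hippo kinases and act through the TEAD family of DNA-binding factors. *Ly6a* (Sca-1), *Clu* and *Anxa1* are commonly used to recognise it. Most of these genes are not particular to epithelium. *Ly6a* is also known from endothelial cells and lymphocytes, *Spp1* from macrophages, *Il33* from stromal cells, and *Msln* from the mesothelium. In whole adenomas, more cells of a type and more RNA per cell cannot be told apart.

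Library totals were 23132461 to 33518324 estimated counts. A floor of 3 counts corresponds to 0.0838 (ApcMin replicate 1) to 0.143 CPM (Apc1322T replicate 2), for counting error only. CPM are counts relative to a common library size, scaled by TMM. Intestinal epithelial RNA was abundant in all of them. The 9 epithelial markers (such as *Epcam*, *Vil1* and *Cdx2*) summed to between 14088 and 17339 CPM in Apc1322T and between 11472 and 13502 CPM in ApcMin adenomas, without overlap. The 6 fibroblast markers reached 604 to 1523 CPM in Apc1322T and 982 to 3304 CPM in ApcMin adenomas, the 7 macrophage markers 91.1 to 122 and 121 to 247 CPM, and the 5 neutrophil markers 7.56 to 33.9 and 9.24 to 101 CPM. In each of these last cell types, ApcMin replicate 1 was the highest library.

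Most fetal-like genes had higher mean values in ApcMin adenomas, but their differences did not pass the threshold of an adjusted p under 0.01 in edgeR's quasi-likelihood test. Of the 9 genes, 8 passed the filter on low counts and were tested, and *Ankrd1* did not. Among the 8, 0 passed the threshold, as did 0 of all 16536 genes tested (0%), and 2, *Ly6e* and *Msln*, had an unadjusted p under 0.05, both with higher values in ApcMin (15.1% of all genes, 7.49% higher and 7.60% lower). DESeq2's Wald test, the study's tool, called 1 of the 9, *Ly6e* (1.11% of the genes that it tested, 0.714% with ApcMin higher). *Ly6e*, *Msln* and *Clu* did not overlap between the genotypes, each with ApcMin above, which held for 11% of all genes tested. *Msln* and *Spp1* differed by more than 1 on the log2 scale, as did 6.28% of all genes tested. Log2 fold changes are ApcMin minus Apc1322T throughout, with their standard error (SE). The estimate was above 0 for 6 of the 8 genes and below 0 for *Il33* and *Il1rn* (52.4% of all genes tested were above 0). The median of the 8 was 0.51, beside 0.02 for all genes tested. It was 0.30 without ApcMin replicate 1. The genes were chosen with earlier results of these data known, which limits every comparison with all genes tested.

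**Figure D1:**
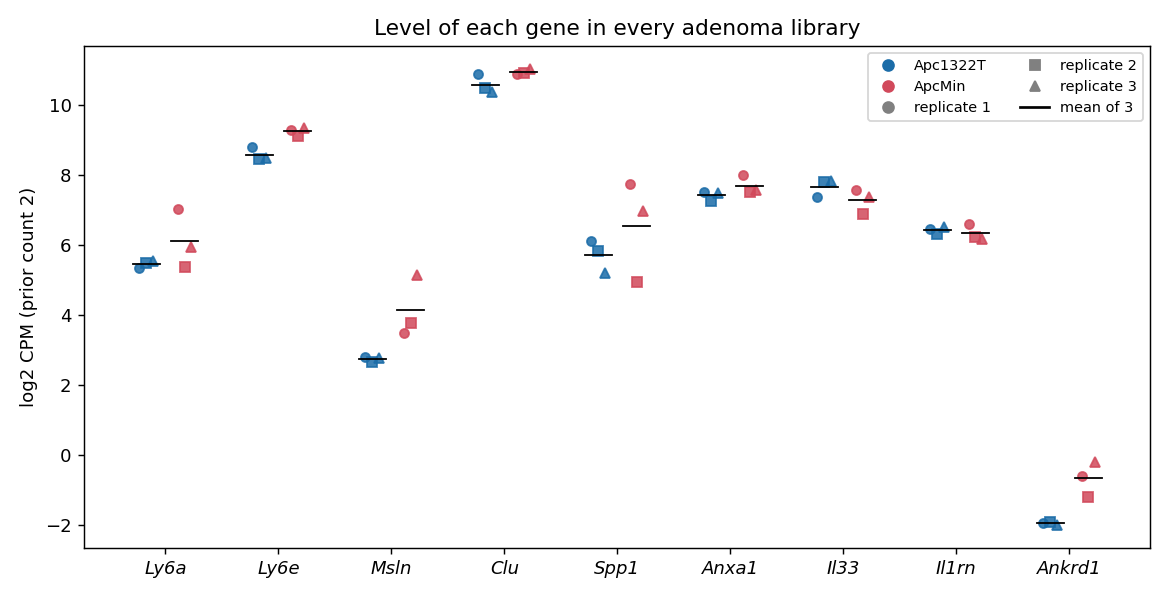
Level of each fetal-like gene in every library, in log2 CPM with a prior count of 2, with Apc1322T in blue, ApcMin in red, symbols for the replicate numbers and a line at the mean of 3 libraries. *Ly6e*, *Msln*, *Clu* and the weakly expressed *Ankrd1* are separated by genotype, whereas *Ly6a* and *Spp1* are spread widely among the ApcMin libraries.

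The levels of different genes were compared per length, as CPM per kilobase of annotated exon. *Clu* was the most abundant, at 448 ± 85.5 (SD, n = 3) in Apc1322T and 573 ± 30.5 (SD, n = 3) in ApcMin adenomas. *Ly6e* followed at 101 ± 13.5 and 161 ± 13.5 CPM per kilobase, and the ranges of both genes were apart from each other and from those of the remaining genes, except that *Spp1* and *Ly6a* in ApcMin replicate 1 (129 and 107) reached the range of *Ly6e* over all libraries (92.6 to 171). *Il33*, *Anxa1*, *Ly6a* and *Spp1* formed a middle group, with means between 32.7 and 74.2 CPM per kilobase. Their ranges over all libraries overlapped, so that no order holds for both genotypes. Within Apc1322T adenomas, every value of *Il33* and *Anxa1* (51.7 to 78.5) was above every value of *Ly6a* and *Spp1* (21.9 to 41.8). *Il1rn* (12.8 to 17.6) and *Msln* (2.03 to 11.5) lay below, and *Ankrd1* was hardly expressed (0.0607 to 0.274). The exon length joins all annotated transcripts of a gene, and a gene that mostly uses a short transcript is therefore underestimated.

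*Ly6a* and *Ly6e* encode small proteins attached to the cell surface by a glycolipid anchor, and both are known to respond to interferon. *Ly6e* lies on chromosome 15 of GRCm38 (74955051 to 74959905, plus strand). Its log2 CPM was 8.78, 8.45 and 8.47 in Apc1322T replicates 1, 2 and 3, and 9.29, 9.11 and 9.34 in ApcMin replicates 1, 2 and 3. All ApcMin libraries were thus above all Apc1322T libraries, and those of each genotype were close together. The difference of 0.67 (SE 0.13) on the log2 scale had an adjusted p of 0.257 in edgeR's test and of 0.00204 in DESeq2's Wald test. An exact permutation test of the 6 libraries gave p = 0.10 (two-sided, the smallest that 3 against 3 allow), as it did for *Msln*, *Clu* and *Ankrd1*. With single libraries left out, the difference ranged from 0.61 to 0.79. DESeq2's adjusted p stayed under 0.01 without Apc1322T replicate 1 (8.0e-10) or ApcMin replicate 2 (0.00297), and was between 0.0328 and 0.0582 without any one of the other 4 libraries. The summed epithelial markers were lower in ApcMin adenomas, and the smooth muscle and squamous markers higher, each without overlap. Their part in the level of *Ly6e* was not tested. Of the 50-base words in *Ly6e* transcripts, the length of the reads, 0 occur in transcripts of other genes.

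*Ly6a* lies close by on the same chromosome (74994877 to 74998031, minus strand) and varied among the ApcMin libraries. It had a log2 CPM of 5.33, 5.48 and 5.54 in the Apc1322T and of 7.01, 5.36 and 5.94 in the ApcMin libraries. ApcMin replicate 1 stood out, while ApcMin replicate 2 was within the range of the Apc1322T libraries. Its estimated difference was 0.82 (SE 0.41, with an adjusted p of 0.382 by edgeR), and 0.23 without ApcMin replicate 1. In that library, all 7 macrophage markers, all 5 neutrophil markers and 5 of the 6 fibroblast markers were higher than in any other, and their part in the level of *Ly6a* was not tested.

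Unlike *Ly6e*, *Ly6a* shares stretches as long as a read with other genes. Of its 50-base words, 19.0% also occur in transcripts of other genes. The counts of *Ly6a* thus depend in part on how the reads were divided. Within the coding sequences, *Ly6i* shares 31 such words, *Ly6c2* 3 and *Ly6c1* 0. Most of the 246 shared words lie outside this coding comparison. Over whole transcripts, *Ly6c1* came first among the other genes by occurrences of shared 31-base words. The longest stretch that the coding sequences of *Ly6a* and *Ly6i* have in common runs over 80 bases, from position 50 to 129 of the *Ly6a* coding sequence counted from the start codon. It is shown because no read from within it can be assigned by sequence, and capitals mark the 32 bases that *Ly6c1* holds as well.

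Ly6a and Ly6i: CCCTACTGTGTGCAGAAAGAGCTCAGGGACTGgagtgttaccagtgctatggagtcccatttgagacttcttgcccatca

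*Ly6c1* had a log2 CPM of 3.04, 3.23 and 2.92 in the Apc1322T and of 4.37, 3.10 and 3.80 in the ApcMin libraries (log2 fold change 0.78, SE 0.31). The same ApcMin libraries, replicates 1 and 3, were thus the highest as for *Ly6a*. *Ly6i* had at most 32 counts, in ApcMin replicate 1, and was not tested.

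*Msln* encodes mesothelin, another glycolipid-anchored surface protein, and lies on chromosome 17 (25748613 to 25754378, minus strand). It showed the largest estimated difference among the 8 tested genes. Its log2 CPM was 2.80, 2.65 and 2.76 in the Apc1322T and 3.48, 3.75 and 5.14 in the ApcMin libraries. The Apc1322T libraries lay close together below all ApcMin libraries, of which replicate 3 was far above the others. The estimate of 1.59 (SE 0.45), or 3.00-fold, had an adjusted p of 0.279 in edgeR's test and of 0.0127 in DESeq2's. It was 0.89 without ApcMin replicate 3 and 1.88 without ApcMin replicate 1, and without the latter DESeq2's adjusted p was 0.00169. The 5 mesothelial markers, of which 2 had enough counts to be tested, summed to 4.47 to 7.57 CPM in Apc1322T and 3.48 to 4.88 CPM in ApcMin adenomas, with the lowest sum in ApcMin replicate 3. Most of each sum came from *Upk1b* (2.75 CPM in ApcMin replicate 3), while *Bnc1* was at 0 counts in that library and in all Apc1322T libraries, so that the comparison rests largely on 1 gene. The 7 squamous markers summed to 7.96 to 10.3 CPM in Apc1322T and 35.7 to 50.2 CPM in ApcMin adenomas, without overlap, and their part in the level of *Msln* was not tested.

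*Clu* encodes clusterin, a secreted chaperone whose gene marks cells that rebuild damaged crypts. It lies on chromosome 14 (65968483 to 65981547, plus strand). The log2 CPM was 10.87, 10.48 and 10.37 in the Apc1322T libraries and 10.89, 10.91 and 11.03 in the ApcMin libraries. The groups were separated by a narrow margin, as Apc1322T replicate 1 nearly reached the ApcMin libraries. An estimate of 0.35 (SE 0.16), or 1.28-fold, had an adjusted p of 0.344 in edgeR's test. Without Apc1322T replicate 1 it was 0.52 (adjusted p = 0.0603 in edgeR's test and 3.1e-06 in DESeq2's), and without Apc1322T replicate 3 it was 0.25. As for *Ly6e*, the part of the cell types in the level of *Clu* was not tested.

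*Spp1* encodes osteopontin, a secreted phosphoprotein that binds integrins and CD44, and lies on chromosome 5 (104435118 to 104441050, plus strand). Its values were the most variable of the tested genes. The log2 CPM was 6.11, 5.82 and 5.18 in the Apc1322T and 7.73, 4.93 and 6.96 in the ApcMin libraries. The ApcMin libraries included both the highest and the lowest of all 6, and differed among themselves by up to 6.95-fold. Accordingly, the log2 fold change of 1.19 had an SE of 0.66 (adjusted p = 0.418 in edgeR's test). It was 0.53 without ApcMin replicate 1 and 1.64 without ApcMin replicate 2, where DESeq2's adjusted p was 0.00106. The macrophage markers had the same order among the ApcMin libraries, with sums of 247, 121 and 166 CPM in replicates 1, 2 and 3, as had the neutrophil, fibroblast and endothelial markers. Among the Apc1322T libraries, the macrophage sums of 122, 91.1 and 108 CPM were not in the order of *Spp1*. The part of these cells in the level of *Spp1* was not tested. Of the 50-base words of *Spp1*, 11.6% are shared with *Gm42793*, a model on the same strand that overlaps it and has no row in the table.

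*Anxa1* encodes a calcium-dependent phospholipid-binding protein that can act on formyl peptide receptors, and lies on chromosome 19 (20373428 to 20390944, minus strand). Its log2 CPM was 7.51, 7.23 and 7.49 in the Apc1322T and 7.98, 7.50 and 7.56 in the ApcMin libraries. Apart from ApcMin replicate 1, the libraries differed little, and the genotypes overlapped. The log2 fold change of 0.28 (SE 0.15) was 0.11 without ApcMin replicate 1.

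Both cytokine genes of the set had estimates below 0. *Il33* encodes an alarmin that is stored in the nucleus and released by damaged cells. It lies on chromosome 19 (29925114 to 29960718, plus strand), and had a log2 CPM of 7.36, 7.79 and 7.82 in the Apc1322T and of 7.55, 6.88 and 7.37 in the ApcMin libraries. The lowest library was ApcMin replicate 2 and the highest were Apc1322T replicates 2 and 3, with overlap between the genotypes. The difference was -0.38 (SE 0.20), and -0.21 without ApcMin replicate 2. *Il1rn*, on chromosome 2 (24336853 to 24351494, plus strand), encodes the secreted antagonist of the IL-1 receptor. Its log2 CPM was 6.44, 6.30 and 6.51 in the Apc1322T and 6.60, 6.21 and 6.15 in the ApcMin libraries, so that the genotypes overlapped. The log2 fold change of -0.083 was smaller than its SE of 0.14, and its sign turned without ApcMin replicate 3 and when only library totals were used for scaling.

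**Figure D2:**
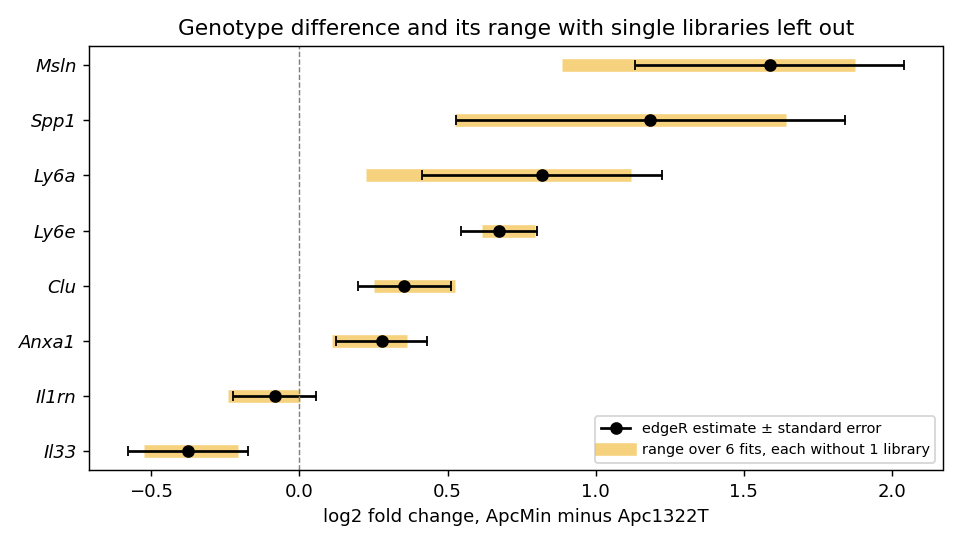
Log2 fold change (ApcMin minus Apc1322T) of the 8 tested genes, as edgeR's estimate with its standard error in black and, in yellow, the range of estimates from 6 fits that each leave out 1 library. The yellow range of *Ly6e* (0.61 to 0.79) is narrow, those of *Ly6a*, *Msln* and *Spp1* are wide, and that of *Il1rn* reaches 0.

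*Ankrd1* encodes a nuclear ankyrin repeat protein, is a widely used target gene of YAP and is otherwise known from muscle. It lies on chromosome 19 (36111961 to 36120099, minus strand) and was near the limit of detection. There were 5, 4 and 4 counts in the Apc1322T libraries (0.183, 0.190 and 0.175 CPM) and 21, 9 and 25 counts in the ApcMin libraries (0.587, 0.354 and 0.790 CPM). Every ApcMin library was above every Apc1322T library. The summed counts, 55 against 13, gave a ratio of 3.24 after scaling (95% interval 1.75 to 6.47 by an exact Poisson test, counting error only). When all genes were tested without a filter on low counts, the log2 fold change was 1.64 (SE 0.58, adjusted p = 0.385 in edgeR's test).

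The letters GGAATG, or CATTCC on the other strand, are the core of the sequence bound by TEAD factors, the partners of YAP and TAZ. They were searched on both strands in the 250 bases before the annotated starts, for which RefSeq (GRCm38.p6) promoter entries were matched for 5 of the 9 genes, *Spp1*, *Anxa1*, *Il33*, *Il1rn* and *Ankrd1*. Of the 9 entries of these genes, 5 held the core, as did 12.64% of the 32851 entries in all. The entries are not independent, as *Il1rn* has 3, of which 2 overlap, and *Il33* and *Spp1* have 2 each. Enrichment was not tested. The AP-1 letters TGACTCA, or TGAGTCA, were in 1 of the 9 (4.46% of all), and the TATA box letters TATAAA were in 4 (7.59% of all). The entry of *Ankrd1* held the TEAD core at 2 places, and those of *Spp1* did not hold this core. The matches of the TEAD core are shown with 12 bases on each side, 5′ to 3′ on the strand of the gene, with the core in capitals. They are a description of the sequence and not evidence of binding.

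Ankrd1, chr19:36120037-36120066, minus strand: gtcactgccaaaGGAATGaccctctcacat
Ankrd1, chr19:36119950-36119979, minus strand: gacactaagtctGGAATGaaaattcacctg
Anxa1, chr19:20390890-20390919, minus strand: actgcactgaacCATTCCtgtgaggaataa
Il33, chr19:29924970-29924999, plus strand: gtaacattggcaGGAATGctattagcttat
Il33, chr19:29945671-29945700, plus strand: tacacaccctcaCATTCCattcatatcgct
Il1rn, chr2:24345335-24345364, plus strand: tgacagtggaacGGAATGacagcagcacag

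The matches of *Ankrd1* lie 210 and 123 bases before the RefSeq start. Those of *Il33* lie before its different starts, 131 and 107 bases away, and that of *Il1rn* lies 24 bases before the last of its 3 starts. Whether the core goes with the direction of a difference was not tested. The estimate of *Il1rn* was smaller than its SE, and *Ankrd1* did not pass the filter on low counts.

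The RNA levels of YAP, TAZ and other Hippo pathway genes, and of the targets, were compared next. The activity of the YAP and TAZ proteins, which the Hippo kinases hold in check, was not measured. Of the 15 Hippo pathway genes, 0 passed the threshold in either direction and 0 had an unadjusted p under 0.05 (15.1% of all genes tested), with a median log2 fold change of 0.04. *Yap1*, which encodes YAP, had a log2 CPM of 7.18, 7.14 and 7.12 in the Apc1322T and of 7.03, 7.02 and 7.14 in the ApcMin libraries (log2 fold change -0.083, SE 0.077). *Wwtr1*, which encodes TAZ, had 4.72, 3.73 and 4.04 log2 CPM in the Apc1322T and 4.71, 4.64 and 4.86 in the ApcMin libraries (log2 fold change 0.51, SE 0.25). *Tead1*, a DNA-binding partner, had a log2 fold change of 0.35 (SE 0.19), and *Mob1a*, the most abundant of the list, which activates the Lats kinases, one of 0.10 (SE 0.08). In each of these 4 genes the genotypes overlapped. Over the whole list, 2 of the 15 genes had groups that did not overlap, 1 in each direction (21.0% of all genes tested).

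Among 21 further YAP and TAZ target genes, 0 passed the threshold in edgeR's test, while 15 had log2 fold changes above 0 and 6 below, with a median of 0.40. In 8 genes all ApcMin libraries were above all Apc1322T libraries, and in 0 genes all were below (11% and 9.96% of all genes tested). *F3*, which encodes tissue factor, had the smallest p, with a log2 CPM of 5.67, 5.76 and 5.74 in the Apc1322T and of 6.41, 6.42 and 6.91 in the ApcMin libraries. Its log2 fold change was 0.88 (SE 0.15), with an adjusted p of 0.257 in edgeR's test and of 3.5e-04 in DESeq2's. *Rbms3*, an RNA-binding protein gene, followed at 0.78 (SE 0.18), also without overlap. *Nt5e*, which encodes the ectonucleotidase CD73 and was the most abundant, had an estimate of -0.48 (SE 0.40), with overlap. Several of these targets are also known from fibroblasts and endothelial cells, whose markers, 6 for each, all had log2 fold changes above 0 (medians 1.01 and 0.28). Their part in the values of the targets was not tested.

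Further genes of the same programme had estimates on both sides of 0. Of 14 other genes of fetal or regenerating gut epithelium, 0 passed the threshold, 6 had log2 fold changes above 0 and 8 below, and the median was -0.03. *Anxa2*, an annexin gene and the most abundant of the list, had an estimate below 0, with a log2 CPM of 10.86, 10.97 and 11.02 in the Apc1322T and of 10.66, 10.76 and 10.51 in the ApcMin libraries (log2 fold change -0.31, SE 0.12). All ApcMin libraries were below all Apc1322T libraries.

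**Figure D3:**
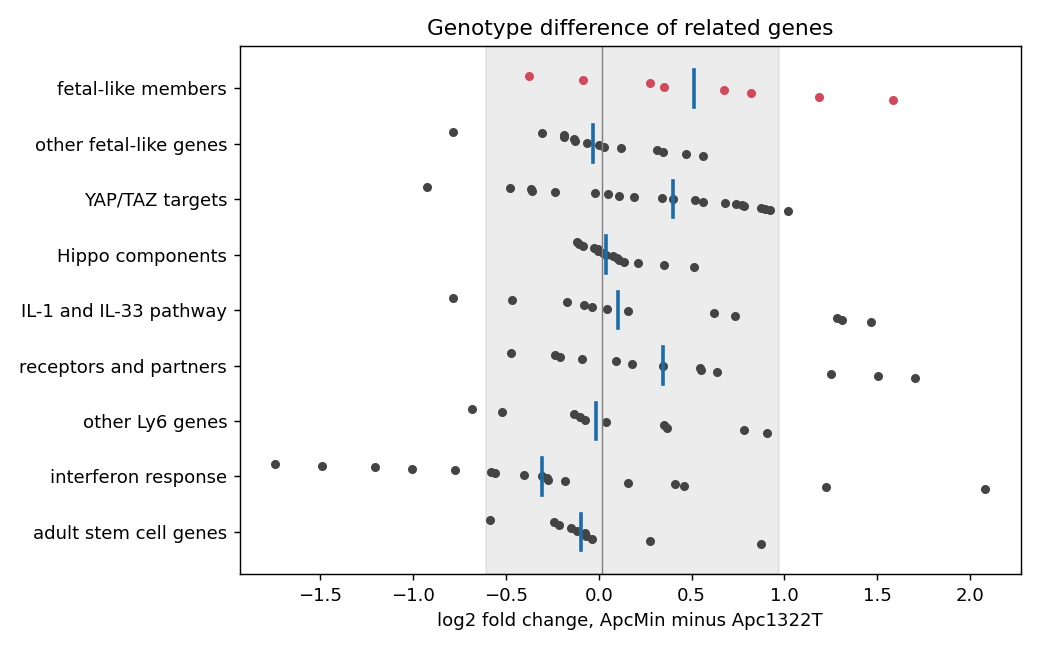
Log2 fold change (ApcMin minus Apc1322T) of each tested gene in the fetal-like set (red) and in 8 lists of related genes (grey), with the list's median as a blue line. The shaded band holds the middle 90% of all genes tested (-0.60 to 0.97), and 6 of the 8 fetal-like genes lie within it, all but *Msln* and *Spp1*.

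The receptors through which these proteins act were listed separately. Among 13 tested receptors and binding partners of *Spp1*, *Anxa1*, *Clu* and *Msln*, 0 passed the threshold and 0 had groups that did not overlap (21.0% of all genes tested). *Itgb1*, which encodes a β-integrin subunit and was the most abundant, had a log2 fold change of 0.09 (SE 0.11), and *Itga9*, an α-integrin gene, one of 0.63 (SE 0.30). *Trem2*, a receptor of macrophages that binds clusterin, was highest in ApcMin replicate 1, at 2.68 log2 CPM against 0.22 to 1.11 in the other libraries. *Lrp2* and *Muc16*, the partner of mesothelin, had at most 7 and 3 counts and were not tested.

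Of 12 genes of the IL-1 and IL-33 pathway, 0 passed the threshold, 7 had log2 fold changes above 0 and 5 below. *Il1rl1*, which encodes ST2, the receptor of IL-33, had a log2 CPM of 6.61, 6.37 and 6.65 in the Apc1322T and of 7.42, 7.31 and 6.67 in the ApcMin libraries. Its log2 fold change of 0.62 (SE 0.20, adjusted p = 0.287 in edgeR's test) was thus opposite in sign to that of its ligand. The groups did not overlap, but Apc1322T replicate 3 and ApcMin replicate 3 had almost the same level. *Irak4*, a kinase of the same pathway, had a log2 fold change of -0.47 (SE 0.15), without overlap.

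Among the other Ly6 family genes, 10 of 15 were tested and 0 passed the threshold, with 5 above 0 and 5 below. The most abundant was *Lypd8*, which encodes an anchored and secreted protein that keeps flagellated bacteria away from the epithelium. Its values were lower in ApcMin adenomas, at 10.56, 10.37 and 10.47 log2 CPM against 11.06, 11.32 and 11.06, without overlap. The log2 fold change of -0.68 (SE 0.13) had an adjusted p of 0.257 in edgeR's test and of 6.3e-05 in DESeq2's, opposite in sign to *Ly6e*.

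The 9 genes had their highest values in different libraries. ApcMin replicate 1 was the highest library for *Ly6a*, *Spp1*, *Anxa1* and *Il1rn*, ApcMin replicate 3 for *Ly6e*, *Msln*, *Clu* and *Ankrd1*, and Apc1322T replicate 3 for *Il33*. Apc1322T replicate 2 was the lowest for *Ly6e*, *Msln* and *Anxa1*, and ApcMin replicate 2 for *Spp1* and *Il33*. Likeness was measured as the root mean square difference of log2 CPM over the 6 libraries after centring each gene on its mean. The closest pair among the tested genes was *Ly6e* and *Clu*, at 0.17, followed by *Anxa1* and *Il1rn* at 0.19. The latter distance was larger than the root mean square deviation of *Il1rn* from its own mean (0.16). Genes that vary little are near each other by this measure, without a shared pattern. The measure counts the size of the deviations as well as their direction, so that a gene with a wide spread, such as *Spp1*, is far from the others (0.56 from *Ly6a*, the nearest).

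**Figure D4:**
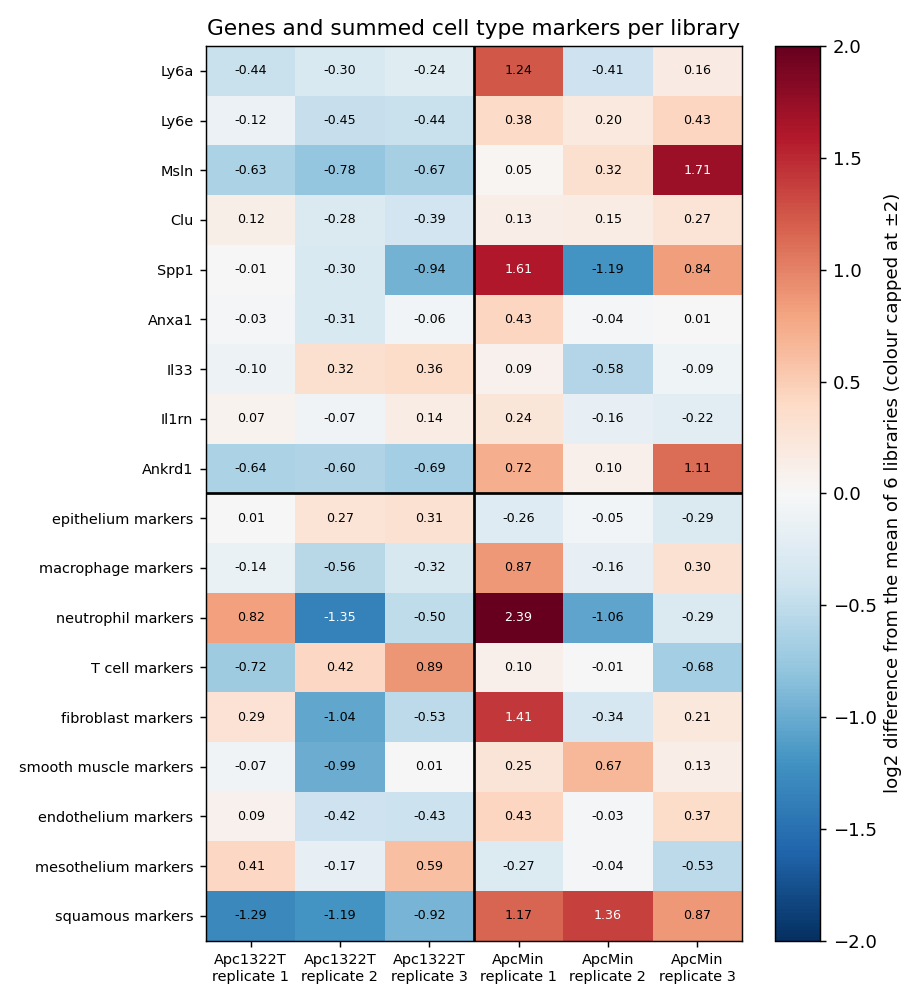
Log2 difference of each library from the mean of the 6 libraries, for the 9 fetal-like genes (top) and the summed CPM of cell type markers (bottom), with red above and blue below the mean. ApcMin replicate 1 is high for *Ly6a* (1.24) and *Spp1* (1.61) and for macrophage (0.87), neutrophil (2.39) and fibroblast (1.41) markers, while *Msln* is high in ApcMin replicate 3 (1.71).

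The genes nearest to each member in the whole table were *Cd84* for *Ly6a* (0.091), *Impact* for *Ly6e* (0.054), *Frmpd1* for *Msln* (0.16), *Lpar6* for *Clu* (0.019), *Cpz* for *Spp1* (0.18), *Gsap* for *Anxa1* (0.057), *Wnt9a* for *Il33* (0.080) and *Spata13* for *Il1rn* (0.043). *Cd84*, a surface receptor of leukocytes, had a log2 CPM of 3.10 in ApcMin replicate 1 and of 1.50 to 2.08 in the other libraries. With 16536 genes and 6 libraries, close matches of this kind are easily found.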

How the data were processed

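RNA-seq libraries of whole excised adenomas, 3 per genotype, were grouped by the genotype and replicate number of their labels. The authors isolated mRNA, made strand-specific libraries, sequenced single-end reads of 50 bases and quantified them against the GRCm38 transcriptome with Salmon. The deposited values are estimated counts summed per gene, not scaled to depth or length, of which 33.4% are not whole. The setting for strand in the quantification is not given in the sources used here.

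The estimated counts were rounded. Symbols, positions and exon lengths were taken from GENCODE M21 (GRCm38), and 34582 of 34866 genes had a symbol. Genes were filtered with filterByExpr (minimum count 10, minimum total 15), normalised by TMM and compared by edgeR 4.0.16 (quasi-likelihood test, robust setting). P-values were adjusted over all genes by the Benjamini-Hochberg procedure, at an adjusted p under 0.01 as in the study. Standard errors were computed from each estimate and its F statistic. A prior count of 2 was used for log2 CPM. Exact permutation tests were two-sided over the 20 assignments of 6 libraries, with 0.10 as the smallest p. DESeq2 1.42.0 and limma-voom (limma 3.58.1, R 4.3.3) were alternatives, beside other normalizations and filters, a replicate block and each library left out. The procedures were tested on simulated data, where a minimum recovery of changed genes was required of DESeq2 only. The outcome is not given here, so that edgeR's power in these libraries is not known from it. Words of 50 bases were compared between the GENCODE transcripts on their own strand.

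The members and lists were chosen with earlier results of these data known. Named were all members, the 2 genes with the smallest p and the most abundant tested gene of each related list, and the gene nearest to each member. A gene that this rule names is not reported here. *Ly6i*, *Lrp2*, *Muc16*, *Gm42793*, *Bnc1*, *Upk1b*, *Yap1*, *Ly6c2*, *Gkn1*, *Tff1*, *Lipf*, *Krt14* and *Fabp6* were named after their values were seen. The labels do not name the mice, and the p-values measure the spread between these samples.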

Additional observations from a re-analysis of the deposited data

How the results depend on the processing

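The sign of the log2 fold change was the same under all 15 alternatives to the test, scaling, filter or libraries (DESeq2 fits without single libraries aside) for 7 of the 8 tested genes. The exception was *Il1rn*, between -0.24 and 0.00064 without single libraries, positive without ApcMin replicate 3, and 0.076 with library totals only, a scaling added after the data were seen that moved the median of all genes from 0.02 to 0.17. The number of fetal-like genes past an adjusted p under 0.01 was 0 in every fit with edgeR or limma-voom and 1 with DESeq2's Wald test. With DESeq2 and each library left out, also added after the data were seen, it was between 0 and 2, namely 0 without Apc1322T replicate 2, Apc1322T replicate 3 or ApcMin replicate 3, 1 (*Msln*) without ApcMin replicate 1, 2 (*Ly6e* and *Clu*) without Apc1322T replicate 1, and 2 (*Ly6e* and *Spp1*) without ApcMin replicate 2. Their median log2 fold change ranged from 0.30 to 0.65 in edgeR's fits without single libraries and from 0.28 to 0.63 in DESeq2's, lowest in both without ApcMin replicate 1. Of all genes, DESeq2 called 194. Without single libraries it called 1449, 63 and 102 (Apc1322T replicates 1, 2 and 3) and 190, 176 and 98 (ApcMin replicates 1, 2 and 3). With edgeR, 1 gene was called without the filter on low counts or at an adjusted p under 0.05 (*Krt14*) and 1 without ApcMin replicate 3 (*Fabp6*). Of the related lists, DESeq2 called 3 genes (*F3*, *Lypd8* and *Ifit1*), and 19, 2 and 2 without Apc1322T replicates 1, 2 and 3 and 2, 7 and 4 without ApcMin replicates 1, 2 and 3, where edgeR called 0 in each. With the replicate number as a block, edgeR called 0 fetal-like genes, 0 genes of the related lists and 0 of all genes. Same-numbered libraries differ in genotype and so come from different mice, and the labels give no pairing beyond the number. Their deviations correlated at -0.014, 0.16 and -0.29, beside values from -0.36 to 0.33 for libraries of different number. The block thus has no basis in the labels, and whether same-numbered libraries share a batch cannot be told from these values. Of the fetal-like genes, *Ankrd1* was the one whose counts were too few for the test, and the precision of the others rests on 3 libraries per genotype.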

Other observations

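*Ly6a* and *Ly6e* are known to respond to interferon, and 17 interferon response genes were read from the same fit. None passed an adjusted p under 0.01 in edgeR's test (0 genes, with 4 at an unadjusted p under 0.05, beside 15.1% of all genes tested, and 1, *Ifit1*, past the threshold in DESeq2's test, beside 1.11%), 5 had log2 fold changes above 0 and 12 below, and the median was -0.31. *Ifit1*, a target of type I interferon, had a log2 CPM of 4.44, 5.89 and 5.81 in the Apc1322T and of 3.71, 4.34 and 2.99 in the ApcMin libraries (log2 fold change -1.74, SE 0.49). *Gbp2*, a guanylate-binding protein gene induced by interferon-γ, had 2.43, 2.69 and 2.98 against 4.34, 2.99 and 4.13 (log2 fold change 1.23, SE 0.36). *Irf1*, the most abundant, overlapped between the genotypes (log2 fold change -0.58, SE 0.36).

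Of 10 adult crypt base stem cell genes, 0 passed the threshold, and the genotypes overlapped in each (21.0% of all genes tested did not overlap). *Lgr5*, a receptor for R-spondins, had a log2 fold change of -0.58 (SE 0.18) and *Olfm4*, which encodes a secreted glycoprotein of the crypt base, one of 0.87 (SE 0.29). *Slc12a2*, an ion cotransporter gene and the most abundant of the list, had one of -0.21 (SE 0.14), and the median was -0.09. Of the remaining marker lists, the 5 T cell markers summed to 12.7 to 38.6 CPM in Apc1322T and 13.1 to 22.3 CPM in ApcMin adenomas, the 6 smooth muscle markers to 127 to 255 and 276 to 402 CPM, the 6 endothelial markers to 137 to 196 and 180 to 248 CPM, and the 6 gastric markers to 80.7 to 186 and 78.2 to 98.2 CPM. The smooth muscle sums did not overlap between the genotypes, whereas the T cell, endothelial and gastric sums did. The gastric sums came mostly from *Gkn1* and *Tff1*. *Lipf*, which encodes gastric lipase, had 4, 10 and 4 counts in the Apc1322T and 312, 436 and 239 counts in the ApcMin libraries (log2 fold change 5.40, SE 0.56, with an adjusted p of 0.219 by edgeR and of 1.7e-19 by DESeq2).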
